A study of Homo sapiens with 4 samples.

Results

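Mismatch, base and nucleotide excision repair are described here through 34 genes in OVCAR3 cells treated with the vehicle DMSO or with etoposide. The genes were chosen by name from what their products are known to do, with earlier results of these data known. They comprise 6 genes of mismatch repair, 13 of base excision repair and 15 of nucleotide excision repair, out of 60605 genes in the tables. All 34 passed the filter on low values (a mean of at least 0.1 FPKM), as did 22185 of all genes. The list does not hold every core gene of these pathways.

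Mismatch repair removes bases that the DNA polymerases misplaced: a MutS dimer finds the mismatch, a MutL dimer is recruited, and a stretch of the new strand is cut away by an exonuclease and copied again. In base excision repair a glycosylase releases a single damaged base, an endonuclease opens the strand at the empty site, and a polymerase fills the gap. Nucleotide excision repair unwinds the helix around a bulky lesion with the general transcription factor TFIIH, cuts on either side and removes a short oligonucleotide. It starts from lesions found anywhere in the genome or from an RNA polymerase that has stalled in a gene. In proliferating cells several mismatch repair genes are transcribed more as DNA replication begins, whereas many excision repair genes are expressed throughout the cell cycle.

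OVCAR3 is an established line of high-grade serous ovarian carcinoma cells. Gene expression was measured by RNA sequencing of polyadenylated RNA in 2 libraries of DMSO-treated cells and 2 libraries of cells given 1.7 µM etoposide, a topoisomerase II poison that leaves DNA double-strand breaks. Both treatments lasted 24 h. Before that, cells of both groups had spent 16 h in nocodazole (100 ng/ml), which holds cells in mitosis, and 3 h in medium free of it, so that the controls carry the same arrest. No untreated or unsynchronised cells were among the samples used here. The labels call the libraries of a group biological replicates without further detail, and the p-values below measure only the spread between these samples, which may be technical.

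The values are FPKM, fragments per kilobase of transcript and per 1000000 mapped fragments, summed over the transcripts of a gene. They are therefore scaled by length and by depth. The mapped bases behind them correspond to 64473397 and 66500749 read pairs in the DMSO libraries and to 47687126 and 58513480 in the etoposide libraries. Between 13482 and 13627 genes had at least 1 FPKM in a library. All 11 markers of serous carcinoma and epithelium were present, with 7.19 FPKM or more, and their summed level was 3089 and 2733 FPKM with DMSO against 2134 and 2214 FPKM with etoposide. Most of this sum was KRT8 (1266 and 1055 against 772 and 821 FPKM) and KRT18 (944 and 835 against 611 and 639 FPKM). EPCAM was higher in both etoposide libraries, the groups of WT1 and CDH1 overlapped, and the other markers were lower in both etoposide libraries. Markers of leukocytes summed to 1.15 to 1.58 FPKM, those of endothelium to 4.41 to 5.61 and those of fibroblasts to 6.83 to 8.20. Of these lists, 3 of 6 leukocyte, 2 of 4 endothelial and 3 of 6 fibroblast markers were under 0.1 FPKM in all libraries, among them PTPRC, CD3E, PECAM1, CDH5, COL3A1 and DCN. The highest of the others were CD14 at 0.612 to 1.02 FPKM, KDR at 3.77 to 5.01 FPKM and COL1A1, which had 4.36 and 4.42 FPKM with DMSO and 6.11 and 5.80 FPKM with etoposide. The part of other cell types in the results was not tested. The DMSO libraries differed from each other in a way that followed transcript length and base composition. Over all genes tested, the log2 ratio of DMSO replicate 2 to replicate 1 had a Spearman correlation of 0.317 with length and −0.340 with GC content, whereas the ratio between the etoposide libraries had correlations of 0.0173 and −0.0164.

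The repair genes spanned a wide range of levels that was nearly the same in every library. APEX1 was the highest, with up to 145 FPKM, and GTF2H4 the lowest, with down to 0.605 FPKM, and 33 of the 34 genes had at least 1 FPKM in all libraries. Summed over the 34 genes, the level was 517 FPKM in both DMSO libraries and 526 and 527 FPKM in the etoposide libraries. APEX1 alone gave 132 to 145 FPKM of this total. The mismatch repair genes summed to 49.2 and 58.4 FPKM with DMSO and to 66.4 and 68.4 FPKM with etoposide. Their DMSO sums lay further apart than their etoposide sums. The base excision repair genes summed to 320 and 302 FPKM with DMSO and to 304 in each etoposide library. For nucleotide excision repair the sums were 147 and 157 FPKM with DMSO and 156 and 154 FPKM with etoposide.

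**Figure D1:**
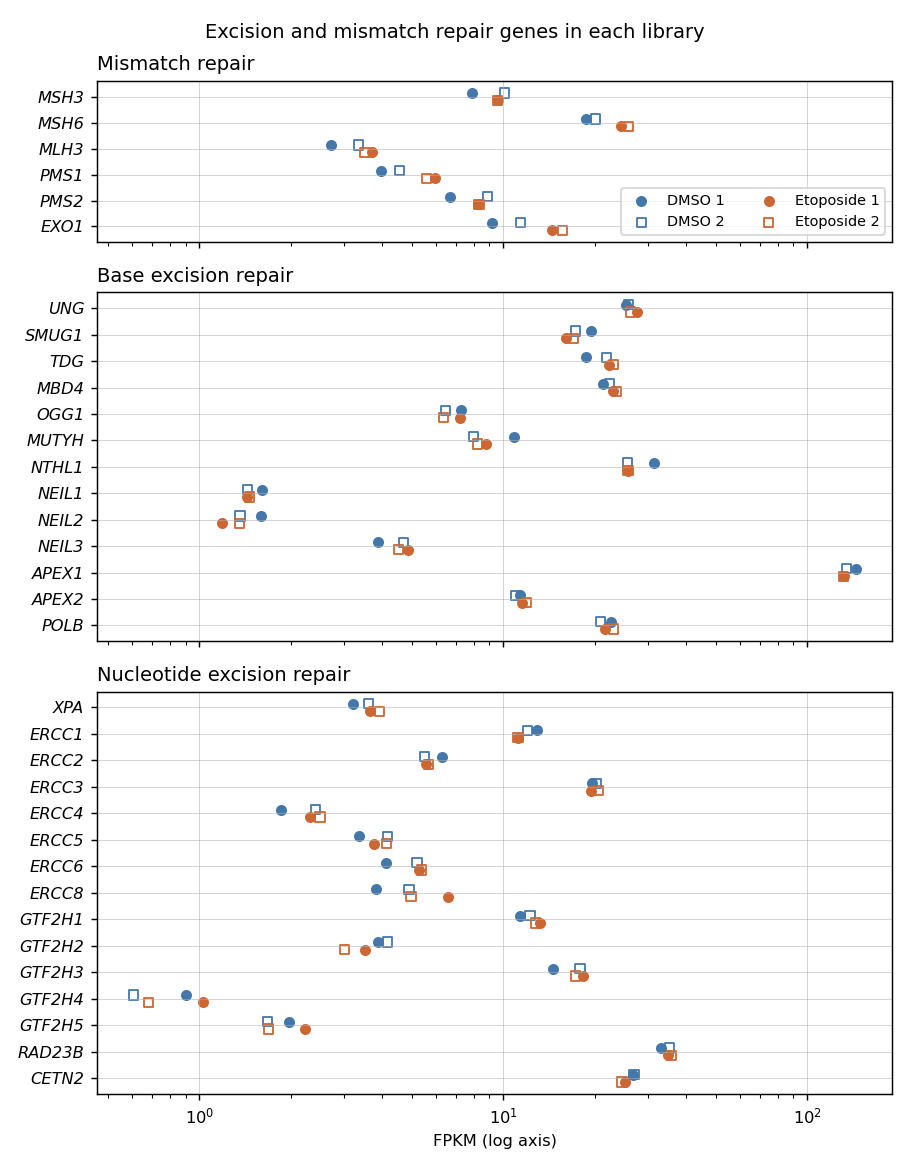
FPKM (log axis) of the 34 genes in each of the 4 libraries, in 3 panels for the 3 pathways, with DMSO libraries in blue, etoposide libraries in orange, replicate 1 as filled circles and replicate 2 as open squares. In the mismatch repair panel MSH6, MLH3, PMS1 and EXO1 have both etoposide points to the right of both DMSO points, whereas most genes of the other panels have points that lie close together or overlap.

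Which of these genes differed between the groups was tested with limma on log2(FPKM + 0.1) over all 22185 genes. At an adjusted p under 0.05, limma called 0 of the 34 genes in either direction, and 0% of all genes. At an unadjusted p under 0.05, 3 of the 34 were higher with etoposide, which is 8.82% against 7.06% of all genes, and 0 were lower, against 4.85% of all genes. The share of the 34 that was higher is thus close to that of all genes. The 3 genes were MSH6, EXO1 and PMS1, all of mismatch repair, and the smallest adjusted p among the 34 was 0.301 (limma). In 18 of the 34 genes (52.9%) the groups did not overlap, against 47.9% of all genes. Of these 18, 12 were higher in both etoposide libraries than in both DMSO libraries, as were 28.9% of all genes, and 6 were lower, as were 19% of all genes. None of the 34 changed 1.5-fold or more, with a count of 0 against 1516 of all genes (6.83%). With 2 libraries against 2, an exact permutation test of a single gene cannot go below a two-sided p of 0.333. In a culture measured in bulk, fewer cells of a type and less RNA per cell cannot be told apart.

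The fold changes are given by pathway, without a test between pathways. The log2 fold change, etoposide against DMSO on the log2(FPKM + 0.1) scale, was above 0 in 6 of 6 mismatch repair genes, with a median of 0.31 and a range of 0.10 to 0.55. In base excision repair it was above 0 in 6 and below 0 in 7 of 13 genes, with a median of −0.015 and a range of −0.20 to 0.17. In nucleotide excision repair 11 of 15 genes were above 0 and 4 below, with a median of 0.081 and a range of −0.30 to 0.40. Over all genes tested 56.2% were above 0 and the median was 0.036. After a correction of each library for transcript length and GC content, the medians were 0.12 for mismatch repair, 0.0014 for base excision repair and −0.026 for nucleotide excision repair.

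In mismatch repair, EXO1 had the largest fold change of the 34 genes. EXO1 encodes the exonuclease that degrades the nicked strand past the mismatch, and lies on chromosome 1 at 241847967 to 241895148 (GRCh38, plus strand). Its level was 9.19 and 11.4 FPKM with DMSO and 14.5 and 15.7 FPKM with etoposide, so that the lowest etoposide library stood above the highest DMSO library. The log2 fold change was 0.55 ± 0.13 (SE), or 1.47-fold, with an unadjusted p of 0.00486 and an adjusted p of 0.302 (limma, n = 2 per group).

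MSH6, on the plus strand of chromosome 2 at 47695530 to 47810063, encodes the MutS partner that recognises single mispairs and short loops. It had 18.8 and 20.1 FPKM with DMSO against 24.4 and 25.8 FPKM with etoposide, a log2 fold change of 0.37 ± 0.083 (SE), or 1.29-fold, with an unadjusted p of 0.00450 and an adjusted p of 0.301 (limma, n = 2 per group). In FPKM the gap between the groups was larger than the gap within either group. The antisense gene FBXO11 shares 33.2% of the exon bases of MSH6, and the authors' command set no strand option, so that reads in the shared bases cannot be assigned. FBXO11 itself had a log2 fold change of 0.08. In the exons of MSH6 that no other gene shares, the level was 75.8 and 98.9 fragments per 1000000 read pairs with DMSO and 115 and 112 with etoposide, a log2 ratio of 0.38. The groups did not overlap there either, but the DMSO libraries lay further apart than the groups did.

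PMS1, a MutL subunit that pairs with the main MutL protein in a dimer of uncertain role, lies on chromosome 2 at 189784085 to 189877629 on the plus strand. Its level was 3.97 and 4.56 FPKM with DMSO and 5.96 and 5.59 FPKM with etoposide. The log2 fold change was 0.43 ± 0.12 (SE), or 1.35-fold, with an unadjusted p of 0.00992 and an adjusted p of 0.336 (limma, n = 2 per group). The remaining 3 genes of the pathway differed less and had unadjusted p-values between 0.113 and 0.509 (limma). MLH3, the MutL subunit that also acts in meiotic crossing over, had 2.71 and 3.33 FPKM with DMSO and 3.70 and 3.50 FPKM with etoposide, without overlap, and a log2 fold change of 0.25. MSH3, the MutS partner for longer loops, had 7.91 and 10.1 FPKM with DMSO, and both etoposide libraries (9.62 and 9.56 FPKM) lay between them. The same was seen for PMS2, the MutL subunit with the nicking activity, with 6.66 and 8.90 FPKM against 8.26 and 8.31 FPKM. Reads of PMS2 are partly shared with its copies. The gene ENSG00000290835 matches 49.1% of the main PMS2 transcript at up to 99.9% identity. The pseudogene PMS2CL matches 28.4% of it at up to 98.0% identity, and ENSG00000291178 matches 8.0% at up to 99.0%.

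All 6 mismatch repair genes had a log2 fold change above 0, although the groups of MSH3 and PMS2 overlapped. The DNA before the start site is shown for the 5 of these genes that hold a searched motif. It is given in a short window around a match and, for MSH6, over the bases outside annotated exons. MLH3 held none of the motifs. The sequences are from RefSeq (GRCh38.p14), written 5′ to 3′ on the strand of the gene, and capitals mark the motif letters. The motifs were the E2F site (TTTCCCGC, TTTCGCGC, TTTGCCGC or TTTGGCGC), the CCAAT box (CCAAT), the GC box (GGGCGG) and the cell cycle homology region (TTTGAA), each on both strands in the 250 bases before the start.
MSH3 (chr5:80654533-80654562, plus strand, with 2 overlapping E2F matches on opposite strands): cgcgcggtcaagTTTGGCGCGAAAttgtgg
MSH6 (chr2:47782895-47783081, plus strand, with 5 GC boxes): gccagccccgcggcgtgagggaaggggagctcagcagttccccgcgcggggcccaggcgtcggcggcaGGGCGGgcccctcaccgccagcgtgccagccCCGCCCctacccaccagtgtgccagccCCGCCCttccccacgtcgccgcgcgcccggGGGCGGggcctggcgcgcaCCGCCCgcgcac
PMS1 (chr2:189784394-189784423, plus strand, with 2 CCAAT boxes): gcggATTGGctgcgagcagcgCCAATctca
PMS2 (chr7:6009127-6009156, minus strand, with an E2F match that overlaps the first of 2 GC boxes): aagtattTTTGCCGCCCCGCCCggaaaggg
EXO1 (chr1:241848154-241848183, plus strand, with 1 GC box): gtcacatcctctGGGCGGggccgcaaggaa

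Of the 34 genes, 31 had a promoter in the RefSeq table, and SMUG1, NEIL2 and POLB did not. The E2F letters were in 2 of the 31 promoters, those of MSH3 and PMS2, against 2.79% of 27305 promoters of the same length. EXO1, PMS1 and MSH6, the genes with the largest fold changes in the pathway, held none of these E2F letters in this window. For EXO1 the window lies before the first exon of the transcript ENST00000366548, and the DNA before the other start, that of ENST00000348581, was not searched. A CCAAT box was in 15 of the 31 promoters, against 33% of all, a GC box in 21 of 31, against 42.3%, and the cell cycle homology letters in NEIL3 alone, against 13.6%. These matches describe letters and say nothing about the binding of a factor.

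In base excision repair no gene had an unadjusted p under 0.144 (limma). The uracil and thymine glycosylases held their levels or were slightly higher. UNG, the main uracil-DNA glycosylase, had 25.3 and 25.9 FPKM with DMSO and 27.6 and 26.3 FPKM with etoposide, and TDG, which removes thymine or oxidised methylcytosine opposite guanine, had 18.7 and 21.8 FPKM against 22.4 and 23.1 FPKM. MBD4, a glycosylase that binds methylated CpG, had 21.2 and 22.4 FPKM against 22.9 and 23.6 FPKM. In UNG, TDG and MBD4 the etoposide libraries were above the DMSO libraries, with log2 fold changes of 0.07, 0.17 and 0.09. SMUG1, a further uracil glycosylase, went the other way with 19.5 and 17.3 FPKM against 16.1 and 17.1 FPKM, a log2 fold change of −0.15. Of the TDG transcript, 38.6% matches the pseudogene TDGP1 at up to 97.7% identity.

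Of the 6 glycosylases for oxidised bases, 5 had a log2 fold change below 0 and NEIL3 had 0.13, and all 6 differences were small, between −0.20 and 0.13. OGG1, which removes 8-oxoguanine opposite cytosine, had 7.27 and 6.46 FPKM with DMSO and 7.21 and 6.37 FPKM with etoposide. The antisense genes CAMK1 and TADA3 share 24.9% and 4.1% of the OGG1 exon bases. MUTYH, which removes adenine opposite 8-oxoguanine, had 10.8 and 7.97 FPKM against 8.76 and 8.23 FPKM, and its DMSO libraries lay on either side of the etoposide pair. NTHL1, which removes oxidised pyrimidines, had 31.3 FPKM in DMSO replicate 1 and between 25.7 and 25.8 FPKM in the other 3 libraries. Here the whole difference between the group means rests on DMSO replicate 1. Of the NEIL glycosylases, NEIL1 had 1.61 and 1.44 FPKM against 1.43 and 1.46 FPKM, with overlapping groups. The antisense gene MAN2C1, at 6.73 to 9.22 FPKM, shares 26.4% of the NEIL1 exon bases. NEIL2 had 1.60 and 1.36 FPKM with DMSO and 1.18 and 1.35 FPKM with etoposide, a log2 fold change of −0.20 with an SE of 0.16. NEIL3, which acts in replicating cells, had 3.88 and 4.70 FPKM against 4.85 and 4.52 FPKM.

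The enzymes after the glycosylases hardly moved. APEX1, the main endonuclease at sites without a base, was the most abundant of the 34 with 145 and 135 FPKM with DMSO and 132 in both etoposide libraries, a log2 fold change of −0.08 ± 0.073 (SE). APEX2, its relative, had 11.4 and 11.0 FPKM against 11.5 and 11.9 FPKM. POLB, the gap-filling polymerase of the short-patch route, had 22.7 and 20.9 FPKM against 21.7 and 23.0 FPKM, with overlapping groups.

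In nucleotide excision repair the genes that recognise and verify the lesion were close in both groups. RAD23B and CETN2 stabilise the complex that recognises lesions across the genome. RAD23B had 33.0 and 35.4 FPKM with DMSO and 34.7 and 35.8 FPKM with etoposide, and CETN2 had 26.6 and 26.9 FPKM against 25.2 and 24.6 FPKM. The CETN2 groups did not overlap, but the log2 fold change was only −0.11 ± 0.074 (SE). XPA, the scaffold that checks the damaged strand, had 3.20 and 3.59 FPKM against 3.64 and 3.91 FPKM.

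ERCC8 and ERCC6 serve the branch that starts from a stalled RNA polymerase, and they had the largest positive fold changes of the pathway. ERCC8, which encodes CSA, had 3.81 and 4.90 FPKM with DMSO and 6.59 and 4.97 FPKM with etoposide. Its log2 fold change of 0.40 ± 0.18 (SE) had an unadjusted p of 0.0738 (limma, n = 2 per group). It was 0.20 without etoposide replicate 1 and 0.22 without DMSO replicate 1. In the ERCC8 exons that no other gene shares, the level was 11.8 and 15.2 fragments per 1000000 read pairs with DMSO and 17.1 and 17.3 with etoposide, a log2 ratio of 0.35. ERCC6, which encodes the ATPase CSB, had 4.12 and 5.20 FPKM against 5.30 and 5.38 FPKM. Here DMSO replicate 1 stood apart from the other 3 libraries.

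The endonucleases that cut around the lesion showed small differences in opposite directions. ERCC1, the partner subunit of the 5′ nuclease, had 12.9 and 12.0 FPKM with DMSO and 11.2 in both etoposide libraries, a log2 fold change of −0.15 ± 0.087 (SE), and 28.6% of its exon bases overlap the antisense gene POLR1G. ERCC4, the catalytic subunit XPF of the same nuclease, had 1.86 and 2.40 FPKM against 2.32 and 2.49 FPKM. ERCC5, the 3′ nuclease XPG, had 3.35 and 4.16 FPKM against 3.75 and 4.12 FPKM. For ERCC4 and ERCC5, which are measured mostly in long transcripts, the groups overlapped.

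TFIIH is the helicase complex that opens the DNA. Its helicase subunit genes ERCC2 and ERCC3 were level: ERCC2, or XPD, had 6.28 and 5.50 FPKM with DMSO and 5.56 and 5.69 FPKM with etoposide, and ERCC3, or XPB, had 19.6 and 20.2 FPKM against 19.4 and 20.5 FPKM. Of the structural subunit genes, GTF2H1 had 11.4 and 12.2 FPKM against 13.2 and 12.7 FPKM. GTF2H3 had 14.6 and 17.9 FPKM against 18.2 and 17.3 FPKM. The groups of GTF2H1 did not overlap, whereas those of GTF2H3 did. GTF2H4 had 0.904 and 0.605 FPKM against 1.02 and 0.681 FPKM, and the overlapping gene ENSG00000288473 shares 79.7% of its exon bases. GTF2H5, the small subunit that stabilises the complex, had 1.97 and 1.68 FPKM against 2.22 and 1.68 FPKM.

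GTF2H2, the p44 subunit that stimulates the helicase ERCC2, had the most negative fold change of the 34 genes, and its value cannot be separated from that of its copies. It had 3.86 and 4.15 FPKM with DMSO and 3.50 and 3.00 FPKM with etoposide, a log2 fold change of −0.30 ± 0.12 (SE) with an unadjusted p of 0.0550 and an adjusted p of 0.423 (limma, n = 2 per group). The copy GTF2H2C covers 100% of the main GTF2H2 transcript at up to 100% identity, and the pseudogene GTF2H2B covers 80.4% at up to 99.8% identity. Both copies stood higher with etoposide: GTF2H2C had 2.95 and 2.93 FPKM against 3.72 in both etoposide libraries, and GTF2H2B had 2.00 and 1.28 FPKM against 2.24 and 2.35 FPKM. The sum of the 3 genes was 8.82 and 8.36 FPKM with DMSO and 9.47 and 9.07 FPKM with etoposide, so that the sum was not lower in either etoposide library.

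How far these differences rest on a single DMSO library was examined by leaving each library out. In 23 of the 34 genes the DMSO libraries differed from each other by more than the fold change between groups, and 21 genes were higher in DMSO replicate 2 than in replicate 1. Without DMSO replicate 2, limma called 3 genes higher (EXO1, MSH6 and PMS1) and 1 lower (NTHL1) at an adjusted p under 0.05, where 6.06% of all genes were called higher and 2.66% lower. At an unadjusted p under 0.05 that fit had 13 of the 34 genes higher and 5 lower, against 17.9% and 11.5% of all genes. In it the remaining DMSO library is assumed to vary like the etoposide group. With any of the other 3 libraries left out, 0 of the 34 genes were called in either direction (limma). The shares of all genes called higher and lower were then 0.0135% and 0.00902% without DMSO replicate 1, 0.144% and 0.297% without etoposide replicate 1, and 0.189% and 0.27% without etoposide replicate 2. The adjusted p was 0.0334 for EXO1, 0.0380 for MSH6 and 0.0429 for PMS1 (limma). Over the other alternatives, the adjusted p ranged from 0.120 to 0.621 for EXO1, from 0.194 to 0.747 for MSH6 and from 0.195 to 0.875 for PMS1. For NTHL1 the adjusted p was 0.0464 without DMSO replicate 2 (limma) and ranged from 0.537 to 0.990 otherwise. Its log2 fold change was −0.28 without DMSO replicate 2 and 0.0041 without DMSO replicate 1. The 3 mismatch repair genes kept a positive fold change whichever library was left out: EXO1 from 0.40 to 0.71, PMS1 from 0.33 to 0.53 and MSH6 from 0.32 to 0.42. MLH3 ranged from 0.11 to 0.40, whereas MSH3 (−0.077 to 0.27) and PMS2 (−0.10 to 0.31) turned without DMSO replicate 1.

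Transcript length and base composition moved with the fold changes of the 34 genes. Across the 34 genes, which share the same libraries, the log2 fold change had a Spearman correlation of 0.46 with length and −0.53 with GC content, and after a loess correction of each library for both the correlation with GC content was −0.12. These correlations are descriptions over genes that are not independent replicates. After the correction the log2 fold change was 0.44 for EXO1, 0.28 for PMS1, 0.19 for MSH6 and 0.06 for MLH3, and that of MSH3 was −0.052. GTF2H2 was at −0.46 after the correction, and ERCC8 at 0.25. The part of length and GC content in the uncorrected values was not tested further.

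**Figure D2:**
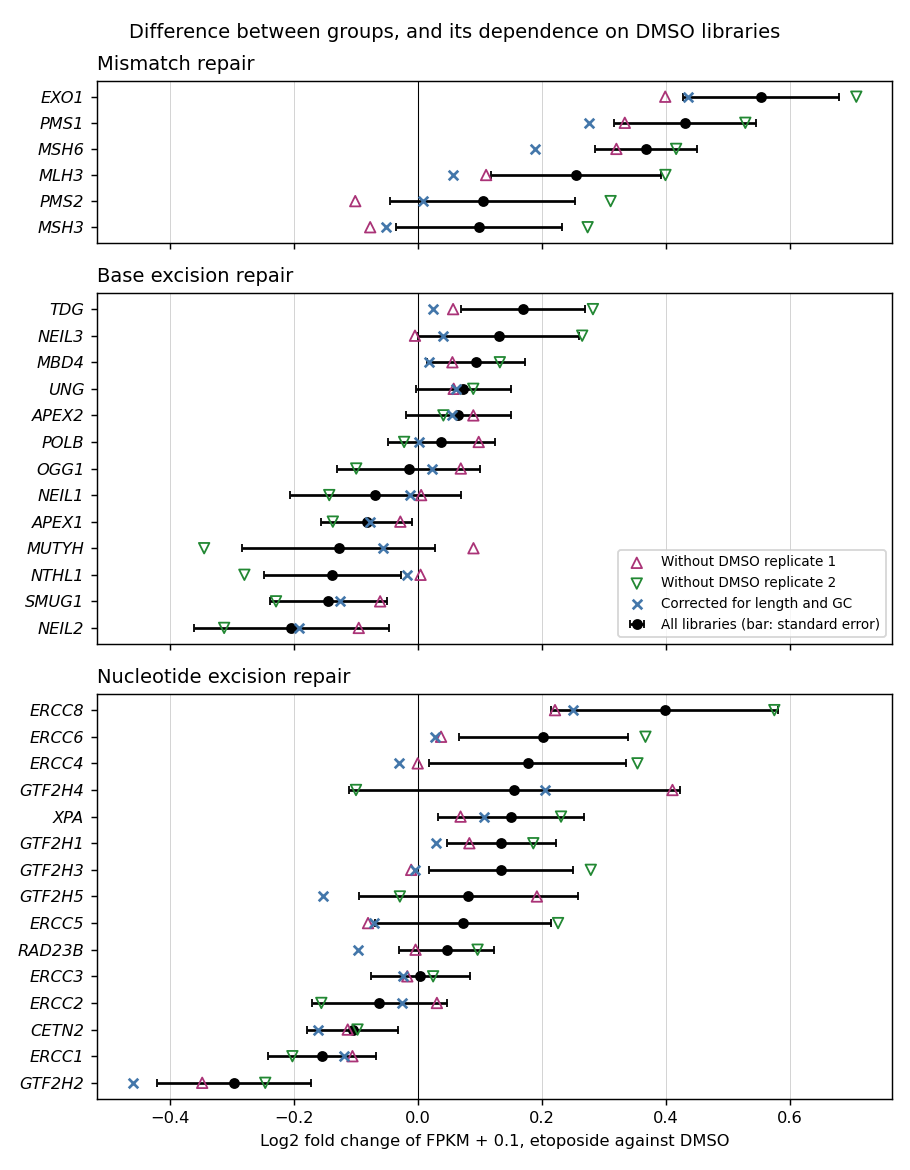
Difference between etoposide and DMSO in log2(FPKM + 0.1) for the 34 genes, by pathway. Black points with bars are the limma estimates with their standard errors over all 4 libraries, triangles leave out either DMSO library and crosses are corrected for length and GC content; EXO1, PMS1, MSH6 and MLH3 stay above 0 in all 4, whereas MSH3 and PMS2 do not.

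The mismatch repair genes were then set beside the genes whose products work with those of the 3 pathways. Of 45 such partner genes, 44 were tested, and MSH4 was too low. At an unadjusted p under 0.05, 12 of the 44 were higher with etoposide (against 7.06% of all genes) and 0 were lower, and none was called at an adjusted p under 0.05 (limma, smallest adjusted p 0.269). The median log2 fold change was 0.11, with 0.17 for the partners of mismatch repair, which share its resynthesis step with replication, 0.067 for those of base excision repair and 0.024 for those of nucleotide excision repair. Each partner was listed under a single pathway. PCNA, LIG1 and the RFC, RPA and POLD genes stood under mismatch repair and the POLE genes under nucleotide excision repair, so these medians depend on that placement. The sliding clamp gene PCNA had 43.6 and 43.8 FPKM with DMSO and 56.8 and 55.9 FPKM with etoposide, a log2 fold change of 0.37. FEN1, the flap endonuclease of long-patch base excision repair, had 45.8 and 46.6 FPKM against 57.9 and 58.3 FPKM. The clamp loader gene RFC3 had 16.0 and 18.5 FPKM against 23.0 and 23.3 FPKM. For POLD3, a subunit of the replicative polymerase delta, the values were 7.69 and 9.10 FPKM against 11.1 in both etoposide libraries. These 4 genes were picked as the partners with the smallest p-values, so that groups without overlap follow from the choice. Of all 44 partners, 22 were higher in both etoposide libraries than in both DMSO libraries, against 28.9% of all genes. In 5 of the 44 both etoposide libraries were lower, against 19% of all genes.

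Markers of the cell cycle were examined in the same fit, in which 0 of them passed an adjusted p under 0.05 (limma, smallest adjusted p 0.267 for S phase and 0.217 for G2 and M phase). The repair genes described here were left out of the S phase list. Of 40 S phase markers, 5 of which are also partner genes, 39 had a positive log2 fold change with a median of 0.30, and 29 had an unadjusted p under 0.05, all of them higher (limma), against 7.06% of all genes. Their summed level was 738 and 798 FPKM with DMSO and 947 and 943 FPKM with etoposide. Of 52 markers of G2 and M phase, 39 had a negative log2 fold change with a median of −0.13, and at an unadjusted p under 0.05 20 were lower and 3 higher (limma), against 4.85% and 7.06% of all genes. They summed to 2518 and 2614 FPKM with DMSO and to 2385 and 2371 FPKM with etoposide. The median of the 6 mismatch repair genes was 0.31 beside 0.30 for the S phase markers, but with the libraries corrected for length and GC it was 0.12 beside 0.24. No difference between these medians was tested, and the part of cell cycle phase in the levels of the repair genes was not tested.

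**Figure D3:**
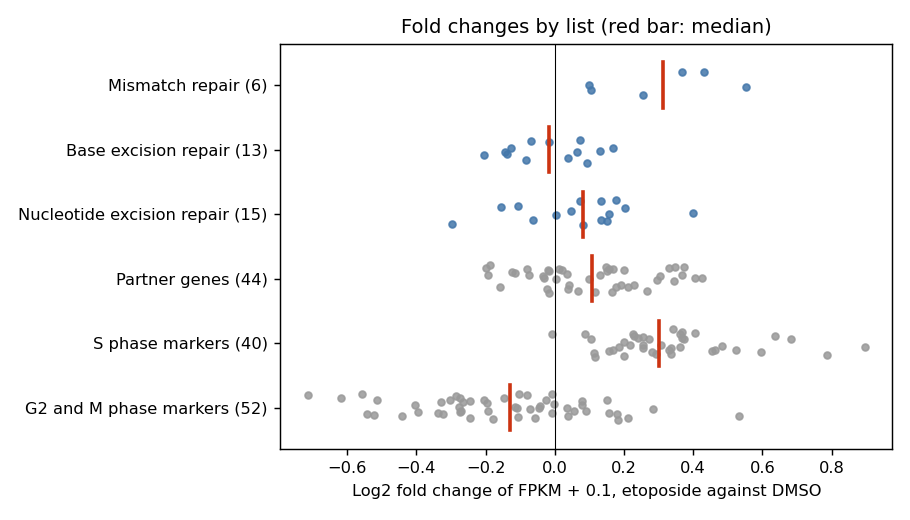
Log2 fold change of each gene (points), etoposide against DMSO, for the 3 repair pathways, their partner genes and the markers of S phase and of G2 and M phase, with the number of genes tested in parentheses and the median as a red bar. The mismatch repair median of 0.31 and the S phase median of 0.30 lie to the right of 0, and the base excision repair median lies at −0.015.

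The transcripts of the 34 genes were tested separately, since a gene can keep its level while its products change. The tables list 492 transcripts of these genes, of which 223 had a mean of at least 0.1 FPKM. At an unadjusted p under 0.05, 9 were higher and 10 lower (limma), against 2.95% and 2.83% of all 71340 transcripts tested, and 0 were called at an adjusted p under 0.05, with a smallest adjusted p of 0.415 (limma). In 48 of the 223 both etoposide libraries were above both DMSO libraries and in 41 both were below, where 37.6% of all transcripts tested had groups that did not overlap. The authors' program divides reads among overlapping transcripts by an estimate, so that a transcript's value is less certain than that of its gene.

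In EXO1 the higher level with etoposide was assigned to a transcript with another start. ENST00000366548, the main EXO1 transcript, had 7.43 and 9.16 FPKM with DMSO and 8.43 and 8.76 FPKM with etoposide, and its share of the gene was 80.8% and 80.4% against 58.3% and 55.8%. ENST00000348581 had 1.25 and 1.71 FPKM against 5.31 and 5.91 FPKM, a log2 fold change of 1.87 ± 0.25 (SE) with an unadjusted p of 0.00217 and an adjusted p of 0.415 (limma, n = 2 per group). Both encode the same length of protein, 846 residues, and ENST00000348581 lacks the first and the third exon of ENST00000366548. Coverage of the EXO1 exons that ENST00000348581 lacks was also higher with etoposide. For the first exon it was 0.599 and 1.17 per base and per 1000000 read pairs with DMSO and 1.32 and 1.53 with etoposide, and for the third 0.837 and 0.969 against 1.51 and 1.43. The coverage of these exons therefore did not stay level. It is summed over all EXO1 transcripts, of which 3 overlap the first exon and 2 the third. It thus cannot be set directly against the FPKM assigned to ENST00000366548 alone.

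UNG makes a nuclear and a mitochondrial glycosylase from separate first exons. The nuclear form, ENST00000242576 with 313 residues, had 11.9 and 15.6 FPKM with DMSO and 26.1 and 17.2 FPKM with etoposide. The mitochondrial form of UNG, ENST00000336865 with 304 residues, had 13.3 and 9.88 FPKM against 0.505 and 8.0 FPKM. The groups did not overlap in either form, yet the etoposide libraries differed from each other by more than the DMSO libraries did, and the unadjusted p was 0.0949 and 0.173 (limma, n = 2 per group). Coverage of the UNG first exon of the nuclear form was 2.25 and 2.18 per base and per 1000000 read pairs with DMSO and 2.70 and 2.48 with etoposide, a smaller change than in the assigned FPKM. In the last exon, which both forms share, it was 5.49 and 5.60 against 5.78 and 5.55.

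APEX1 and POLB showed a similar division between a coding and a non-coding product. The coding APEX1 transcript ENST00000216714 had 67.2 and 59.8 FPKM with DMSO and 67.4 and 72.9 FPKM with etoposide (unadjusted p = 0.241, adjusted p = 0.848, limma). The form with a retained intron, ENST00000553555, had 61.6 and 60.7 FPKM against 48.5 and 42.8 FPKM (unadjusted p = 0.0163, adjusted p = 0.706, limma). For POLB the coding ENST00000265421 had 9.50 and 7.68 FPKM against 14.4 and 12.5 FPKM (unadjusted p = 0.0253, adjusted p = 0.775, limma). The POLB transcript marked for nonsense-mediated decay, ENST00000522610, had 4.23 and 5.56 FPKM against 1.87 and 2.99 FPKM (unadjusted p = 0.0428, adjusted p = 0.842, limma). In APEX1 and POLB the share of the main coding transcript was thus higher in both etoposide libraries, while the gene's own FPKM overlapped or differed by little.

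The naming rule took 67 tested transcripts that were the highest of their gene or reached 20% of it in any library. A transcript could thus enter through the group where it was high, so the counts cannot be compared with the shares of all transcripts. Of the 67, 5 were higher and 6 lower at an unadjusted p under 0.05 (limma), beside 2.95% and 2.83% of all transcripts, which were not so selected. Besides those of EXO1, APEX1 and POLB these were 7 transcripts from 6 genes, with adjusted p-values of 0.544 or more (limma). MSH6 ENST00000673637, which encodes 1261 residues, had 2.76 and 2.46 FPKM with DMSO and 4.95 and 8.99 FPKM with etoposide, and SMUG1 ENST00000682136, with 270 residues, had 2.35 and 2.59 FPKM against 3.72 and 4.19 FPKM. ERCC8 ENST00000682246, a form with a retained intron, had 0.676 and 0.800 FPKM against 1.81 and 1.27 FPKM. These 3 were higher with etoposide, and the following 4 were lower. PMS1 ENST00000624204, with 756 residues, had 0.943 and 0.386 FPKM with DMSO, and PMS1 ENST00000342075, marked for nonsense-mediated decay, had 1.38 and 0.255 FPKM, and both were listed at 0 in the etoposide libraries. NEIL2 ENST00000436750 had 0.786 and 0.262 FPKM with DMSO and was likewise listed at 0 in both etoposide libraries. ERCC6 ENST00000447839, with 1061 residues where the ERCC6 transcript ENST00000355832 encodes 1493, had 0.786 and 1.61 FPKM against 0.0911 and 0.219 FPKM. The ERCC5 signal was assigned mainly to forms with a retained intron: ENST00000682632 and ENST00000683246 together took most of the FPKM of ERCC5 in every library, 53.4% and 35.6% in DMSO replicate 1.

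**Figure D4:**
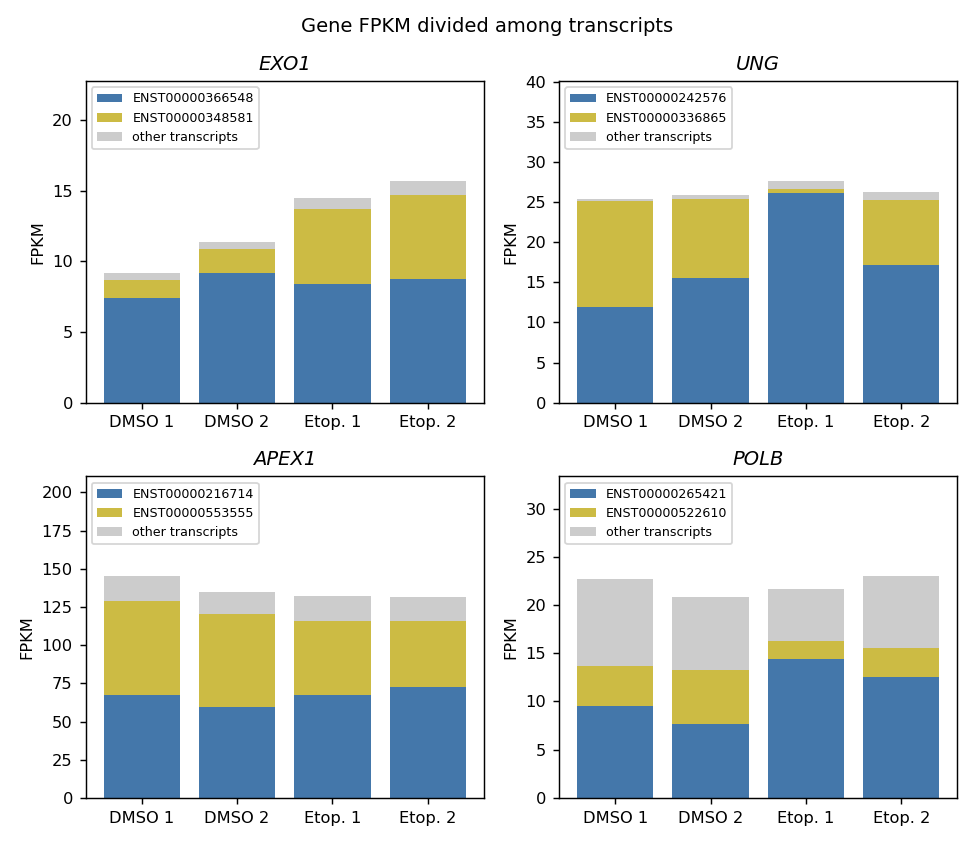
FPKM of EXO1, UNG, APEX1 and POLB in each library, stacked by transcript, with the highest transcript in blue, the second in yellow and all others in grey. In EXO1 the yellow part (ENST00000348581) is 1.25 and 1.71 FPKM with DMSO and 5.31 and 5.91 FPKM with etoposide, and in UNG the division differs most in etoposide replicate 1.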

How the data were processed

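RNA of 4 OVCAR3 libraries (2 DMSO, 2 etoposide, grouped by their titles) was read as pairs of 100 bases by the study after a stranded mRNA preparation. Per the labels and file headers, the authors used HISAT2 and SAMtools for alignment and StringTie 2.1.7 to quantify the transcripts of Ensembl release 104 (GRCh38) only, with no setting for the strand. The deposited tables give coverage, FPKM and TPM for 236853 transcripts and no counts. The study tested counts with DESeq2, and those counts were not used here. As the tables hold FPKM, limma 3.58.1 in R 4.3.3 was applied to log2(FPKM + 0.1), with trend and robust fitting, over genes with a mean of at least 0.1 FPKM and Benjamini-Hochberg adjustment. The log2(FPKM + 0.1) scale understates the change of low genes. Depth was taken from the ratio of FPKM to coverage, for pairs of 200 bases, and no interval was made from it.

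All 34 genes are named, with up to 4 partner genes of the smallest p-values, and transcripts that are the highest of their gene or reach 20% of it in a library. Members, lists and the rule were chosen with earlier results of these data known. Alternatives were other pseudocounts (1 and 0.01), filters (none, and a mean of at least 1 FPKM), TPM, median-ratio scaling, estimated fragments with voom, no trend, a loess correction (span 0.3) for length and GC content, a replicate block, leaving out each library, and, added after the data were seen, only exons that share no base with another gene. Copies were found with BLAST 2.17.0 (at least 97% identity over 100 bases), gene types and proteins in GENCODE release 44, and promoters in RefSeq. The tests were tested on simulated data. Python 3.11.15, pandas 2.3.3 and matplotlib 3.10.9 were used. Some genes of these pathways are not reported here.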

Additional observations from a re-analysis of the deposited data

How the results depend on the processing

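Over 508 values of single genes under the alternatives, 467 kept their direction and their side of the threshold, 4 passed it (EXO1, MSH6, PMS1 and NTHL1, without DMSO replicate 2) and 37 changed sign, and 18 of the 34 genes kept their direction throughout. The other filters, the fit without trend and the replicate block leave every fold change as it was by design. In these only the adjusted p could move, and the 467 include them. The 467 also include values from exons of no other gene, which had no adjusted p and were compared by direction alone. GTF2H4 could not be fitted at a mean of at least 1 FPKM. Leaving out 1 library gave 0 to 3 genes higher and 0 to 1 lower at an adjusted p under 0.05, and 2 to 13 higher and 0 to 5 lower unadjusted (main 3 and 0), where 3.25% to 17.9% of all genes were higher and 3.38% to 11.5% lower. The unadjusted counts were 5 higher and 1 lower with voom (9.85% and 4.73% of all genes), 1 lower with median-ratio scaling (6.31%) and 2 lower after the length and GC correction (8.37%). Medians ranged, leaving out 1 library, from 0.22 to 0.41 for mismatch repair, −0.0997 to 0.056 for base excision, −0.00052 to 0.0995 for nucleotide excision, 0.034 to 0.093 for all 34, 0.052 to 0.12 for partners, 0.25 to 0.38 for S phase and −0.22 to −0.062 for G2 and M phase markers. After the correction the medians were 0.12 for mismatch repair, −0.026 for nucleotide excision, −0.0016 for all 34 and 0.24 for S phase. With voom the base excision median was 0.056. The partner median was 0.18 with TPM, which moved the median of all genes from 0.036 to 0.10, and 0.053 after the correction, when that of G2 and M phase was −0.24. Under the correction MSH3 was −0.052, OGG1 0.023, ERCC3 −0.024, ERCC4 −0.031, ERCC5 −0.072, GTF2H3 −0.0046, GTF2H5 −0.15 and RAD23B −0.098. With TPM OGG1 was 0.051 and ERCC2 0.0034, with voom OGG1 0.072 and GTF2H5 −0.067, and with median-ratio scaling ERCC3 −0.033. In exons of no other gene OGG1 was 0.034, MUTYH 0.078 and GTF2H5 −0.072. For MUTYH these exons held only 7.67% of its coverage in DMSO replicate 1. The cause of these turns was not tested. Leaving out 1 library turned MSH3 (−0.077 to 0.27), PMS2 (−0.10 to 0.31), OGG1 (−0.10 to 0.073), MUTYH (−0.35 to 0.090), NTHL1 (−0.28 to 0.0041), NEIL1 (−0.14 to 0.0050), NEIL3 (−0.0049 to 0.27), POLB (−0.022 to 0.098), ERCC2 (−0.16 to 0.030), ERCC3 (−0.037 to 0.044), ERCC4 (−0.00052 to 0.35), ERCC5 (−0.081 to 0.23), GTF2H3 (−0.011 to 0.28), GTF2H4 (−0.11 to 0.42), GTF2H5 (−0.11 to 0.27) and RAD23B (−0.0039 to 0.096). Libraries with the same number did not deviate together (correlation 0.013). With the replicate number as a block 0 genes were called, while every fold change was the same by design. Depth differed by library, and the low GTF2H4, NEIL1, NEIL2 and GTF2H5 rest on the fewest fragments per kilobase.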
